A study of Mus musculus with 8 samples.

Results

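Annexins are calcium-dependent membrane-binding proteins, and this account covers the mouse annexin genes Anxa1 to Anxa9 and Anxa11 in epididymal fat under a chronic glucocorticoid. The genes were taken by symbol from probe sets whose platform annotation gives 1 symbol, and a gene with several such probe sets was represented by the one with the highest mean over the arrays. Of the 10 listed genes, 9 had a value, among 22180 genes in all, and each of the 9 had 1 probe set of its own. Anxa11 had 0 such probe sets, because its 3 probe sets also name other genes, so no value is given for it. All 9 measured genes passed the filter that left out the dimmest genes, and they were tested among 14787 genes.

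Each of the 8 arrays came from a different male C57BL/6 mouse and measured its left epididymal fat pad. The 4 prednisolone mice (GC+) received prednisolone, a synthetic glucocorticoid, every day in a puree of sweet potato for 4 weeks from 6 weeks of age, at a dose the labels give as 40 mg per kg per square metre. The 4 vehicle mice (GC-) received the puree alone over the same weeks. Both groups were caged singly from weaning at 3 weeks, were fed an n-6 rich diet in which fat supplied 45% of the energy, and were killed at 10 weeks of age. Prednisolone was given to the whole animal and whole fat was measured, so the cells in which a transcript differs are not resolved, and fewer cells of a type and less RNA per cell cannot be told apart.

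Each annexin has a conserved core that binds acidic phospholipids when calcium is present, and a variable N-terminal tail that carries its partners. Several members link membranes to actin, S100 proteins or the vesicle machinery, and some are released and act outside the cell. Annexin A1, once called lipocortin, is known as a glucocorticoid-induced mediator that acts through formyl peptide receptors and limits inflammation. In adipose tissue annexins are made by adipocytes, stromal cells, endothelium, lining mesothelium and macrophages.

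The regions before the gene starts are shown for Anxa1, the member with the largest difference, for Anxa5, which also had an unadjusted p under 0.05, and for Anxa2, the most studied partner of the S100 proteins. They are the 250 bases before each start in RefSeq on GRCm38.p6, on the strand of the gene. The Anxa1 window is chr19:20390672-20390921 on the minus strand, the Anxa5 window is chr3:36475888-36476137 on the minus strand and the Anxa2 window is chr9:69453433-69453682 on the plus strand. Capitals mark matches to the motifs named below, and Anxa5 has none.
Anxa1: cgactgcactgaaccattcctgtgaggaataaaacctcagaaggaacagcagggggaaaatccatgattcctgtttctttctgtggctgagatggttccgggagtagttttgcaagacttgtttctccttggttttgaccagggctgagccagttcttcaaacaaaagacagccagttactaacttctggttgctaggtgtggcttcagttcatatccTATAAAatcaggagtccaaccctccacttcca
Anxa5: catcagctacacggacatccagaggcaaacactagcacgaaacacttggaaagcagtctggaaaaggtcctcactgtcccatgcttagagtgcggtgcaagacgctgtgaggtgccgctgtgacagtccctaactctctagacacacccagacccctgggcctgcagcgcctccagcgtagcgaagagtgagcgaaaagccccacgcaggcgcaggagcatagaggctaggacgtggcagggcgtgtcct
Anxa2: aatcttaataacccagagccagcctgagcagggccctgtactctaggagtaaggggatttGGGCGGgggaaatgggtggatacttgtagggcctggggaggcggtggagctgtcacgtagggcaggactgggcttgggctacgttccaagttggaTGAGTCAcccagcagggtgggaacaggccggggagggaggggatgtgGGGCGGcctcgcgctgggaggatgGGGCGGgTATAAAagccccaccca

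Motifs were searched on both strands of these windows. Of the 10 listed members, 8 had windows in the RefSeq table, 11 windows in all. The TATA box TATAAA began 32 bases before the Anxa1 start and 17 bases before the Anxa2 start, and was in 12.4% of the 32851 windows of all genes. The GC box GGGCGG stood 3 times before Anxa2, was in 4 of the 11 annexin windows and in 32.7% of all windows. The AP-1 site TGANTCA began 95 bases before the Anxa2 start and was in 6.75% of all windows. The arm of the glucocorticoid receptor element, AGAACA, was in 1 of the 11 annexin windows, that of Anxa4, and in 16.1% of all windows. The whole element, AGAACA followed by 3 bases of any kind and TGTTCT, contains that arm on each strand and was in 0 of the 11 annexin windows and in 3 windows of all genes. A motif that was not found says only that its letters are not in these windows.

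Some arrays stood apart. Transcripts of the epididymis, which lies against this fat pad, were scored over 19 tested epididymis markers of 26 listed. A list score is the mean over its tested genes of the log2 values, each centred on that gene's mean in the 8 mice. The score was 3.13 in prednisolone mouse 2, against 2.95 in vehicle mouse 1 and 1.74 in vehicle mouse 4, and between -2.35 and 0.31 in the other 5 mice. The 3 mice with a score over 1 are called the mice of high epididymis score, and annexin results are given with and without them. Gpx5, a glutathione peroxidase of the epididymis, read 11.27, 13.81, 4.57 and 4.76 in prednisolone mice 1 to 4, against 13.78, 4.19, 8.69 and 13.61 in vehicle mice 1 to 4. Prednisolone mouse 1 and vehicle mouse 3, though under the cut, thus read well above the lowest mice. Fits without the 3 mice of high score are therefore not free of epididymis transcripts. Adipocyte markers were bright on every array, and the mean log2 level over their 11 tested members ran from 12.52 to 12.71 in prednisolone mice and from 12.34 to 12.72 in vehicle mice.

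No annexin passed the test, although the mean of each of the 9 measured annexins was higher in the prednisolone group over all 8 mice. The count past an adjusted p of 0.05 in limma, a linear model fitted to each gene with a shared estimate of variance, was 0 of 9 annexins and 0 of all 14787 tested genes (percent called 0), with a lowest adjusted p of 0.713 over all genes. Differences below are in log2 units, prednisolone minus vehicle, and carry the model's standard error (n = 4 mice per group). The median annexin difference was 0.15, against 0.02 over all tested genes, and 54.6% of all tested genes had a positive difference. The annexin median was 0.24 without prednisolone mouse 2, 0.10 without prednisolone mouse 3 and 0.26 with arrays weighted by their residual spread (array weights). The median was set by Anxa7, and 17.9% of all tested genes differed by as much as Anxa7 or more. At an unadjusted p under 0.05 stood 3 of 9 annexins, Anxa1, Anxa5 and Anxa6, all with the positive sign. Over all genes the same threshold took 842, or 5.69%, of which 498, or 3.37%, were higher with prednisolone. Without the 3 mice of high epididymis score, 7 of 9 annexins were higher with prednisolone and 1 of 9, Anxa6, had an unadjusted p under 0.05. The groups were apart, with no overlap, in 0 of 9 annexins, against 3.2% of all tested genes. Annexins were chosen with earlier results of these data known, so these counts describe the family and test nothing about it.

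**Figure D1:**
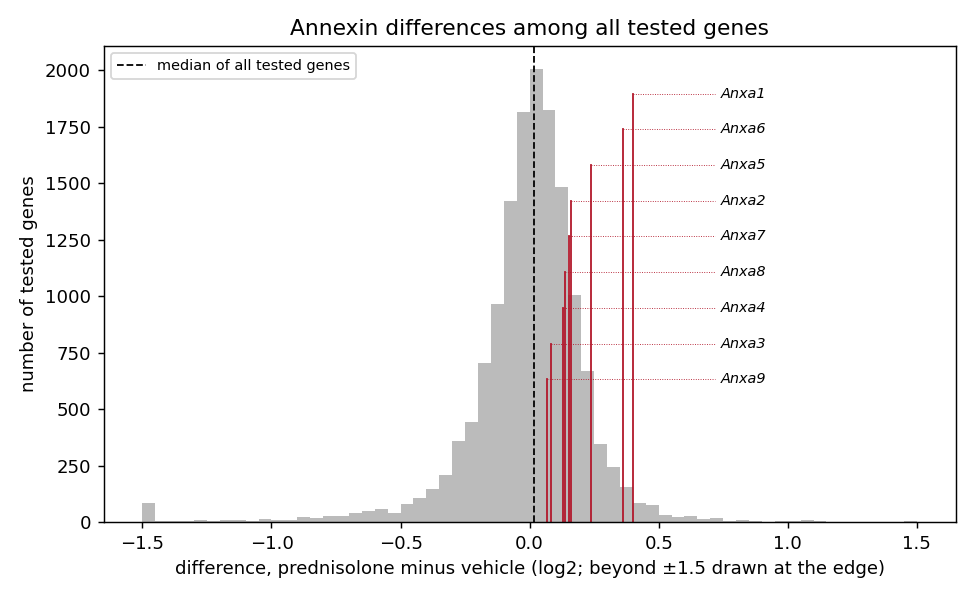
Histogram of the difference between prednisolone and vehicle means (log2, horizontal axis) over the 14787 tested genes (number of genes, vertical axis), with a red line at each annexin and a dashed line at the median of all genes. The 9 annexins lie to the right of the median of 0.02, from 0.07 for Anxa9 to 0.40 for Anxa1. Of all tested genes, 17.9% differed by as much as Anxa7, the median annexin, or more.

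Anxa1, the glucocorticoid-induced annexin, had the largest difference of the family. Its log2 values were 12.36, 12.39, 12.88 and 12.61 in prednisolone mice 1 to 4, against 11.97, 12.42, 12.26 and 11.98 in vehicle mice 1 to 4. Prednisolone mouse 3 was highest and vehicle mice 1 and 4 lowest, and the groups overlapped because vehicle mouse 2 lay above prednisolone mice 1 and 2. The means were 12.56 ± 0.24 in prednisolone mice and 12.16 ± 0.22 in vehicle mice (SD, n = 4 each). The difference was 0.40 ± 0.15, or 1.32-fold, with a 95% interval of 0.06 to 0.75 on the log2 scale (limma unadjusted p = 0.0273, adjusted p = 0.768). The prednisolone value was the higher one in 14 of the 16 pairs of a prednisolone and a vehicle mouse, a count that 8.16% of all tested genes reached or passed. Vehicle mice 1 and 4, the lowest, were both of high epididymis score, while prednisolone mouse 2, also of high score, lay in the middle. Without the 3 mice of high score the Anxa1 difference was 0.28 ± 0.17 (adjusted p = 0.957), a fit that leaves 3 prednisolone and 2 vehicle mice. With the score as a covariate it was 0.36 ± 0.09 (adjusted p = 0.568).

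Anxa6, an annexin with a duplicated core that binds late endosomes and takes part in cholesterol transport, came closest to separating the groups. It had log2 values of 11.99, 11.81, 12.12 and 12.14 in prednisolone mice 1 to 4, against 11.49, 11.88, 11.74 and 11.50 in vehicle mice 1 to 4. Only prednisolone mouse 2 lay below a vehicle mouse, namely vehicle mouse 2. The difference was 0.36 ± 0.12, or 1.29-fold with a 95% interval of 1.06 to 1.55 (limma unadjusted p = 0.0154, adjusted p = 0.768). The prednisolone mouse was higher in 15 of 16 pairs, a count that 4.00% of all tested genes reached or passed. The difference was 0.27 ± 0.11 without the mice of high epididymis score and 0.33 ± 0.06 with that score as a covariate, with adjusted p-values of 0.957 and 0.544.

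Anxa5, which binds exposed phosphatidylserine and is the usual stain for dying cells, was highest in prednisolone mouse 3 and lowest in vehicle mouse 1, as was Anxa1. Its log2 values were 12.66, 12.61, 12.81 and 12.78 in prednisolone mice 1 to 4, against 12.30, 12.67, 12.56 and 12.39 in vehicle mice 1 to 4. Vehicle mouse 2 was again the vehicle mouse inside the prednisolone range, and vehicle mice 1 and 4 were lowest. The difference was 0.24 ± 0.10, or 1.18-fold with a 95% interval of 1.01 to 1.38 (limma unadjusted p = 0.044, adjusted p = 0.768). It was 0.14 ± 0.11 without the mice of high epididymis score (adjusted p = 0.957) and 0.21 ± 0.07 with the score as a covariate (adjusted p = 0.582).

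**Figure D2:**
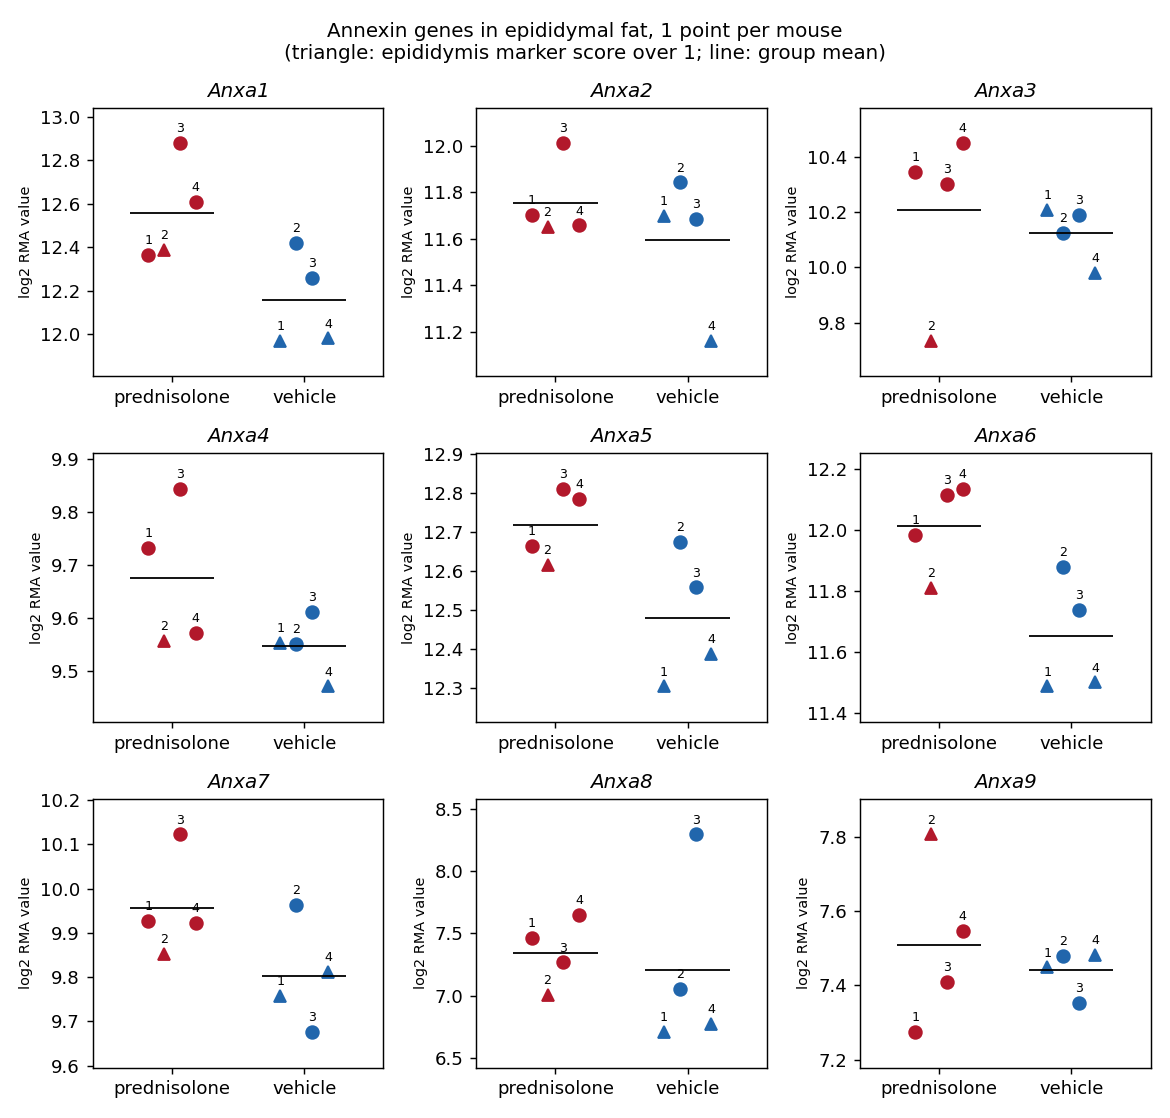
Log2 RMA value of each measured annexin (vertical axes, a scale per gene) in the 4 prednisolone mice (red, left) and the 4 vehicle mice (blue, right), with the replicate number beside each point, a line at the group mean and triangles for mice with an epididymis score over 1. The groups overlap in all 9 panels, least in Anxa6, where prednisolone mouse 2 at 11.81 lies below vehicle mouse 2 at 11.88.

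Anxa2 forms a complex with the S100 protein p11, encoded by S100a10, and serves as a cell-surface binding site for plasminogen and tissue plasminogen activator. Its log2 values were 11.70, 11.65, 12.01 and 11.66 in prednisolone mice 1 to 4, against 11.70, 11.84, 11.68 and 11.16 in vehicle mice 1 to 4. Most mice of both groups fell in one narrow range, with prednisolone mouse 3 above it and vehicle mouse 4 below it. The difference was 0.16 ± 0.16, or 1.12-fold with a 95% interval of 0.868 to 1.44 (limma adjusted p = 0.823). It was 0.01 without vehicle mouse 4 and 0.03 ± 0.14 without the mice of high epididymis score, a set that includes vehicle mouse 4. Without prednisolone mouse 3 it was 0.07, so the size of the Anxa2 difference rests on vehicle mouse 4 and prednisolone mouse 3. Without vehicle mouse 2 it was 0.24 and with array weights it was 0.28.

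Anxa4, an annexin of secretory epithelia and membranes, had log2 values of 9.73, 9.56, 9.84 and 9.57 in prednisolone mice 1 to 4, against 9.55, 9.55, 9.61 and 9.47 in vehicle mice 1 to 4. Prednisolone mice 1 and 3 lay above all vehicle mice, while mice 2 and 4 lay among them. The difference was 0.13 ± 0.09, with a 95% interval of -0.07 to 0.33 (limma adjusted p = 0.768), and it was 0.07 without prednisolone mouse 3.

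Anxa7, or synexin, which promotes membrane fusion and binds sorcin, had log2 values of 9.93, 9.85, 10.12 and 9.92 in prednisolone mice 1 to 4, against 9.76, 9.96, 9.68 and 9.81 in vehicle mice 1 to 4. Vehicle mouse 2 was second only to prednisolone mouse 3, and the other 3 vehicle mice lay below every prednisolone mouse. The difference was 0.15 ± 0.09, with a 95% interval of -0.06 to 0.37 (limma adjusted p = 0.768). Without prednisolone mouse 3 it was 0.10. Leaving out the mice of high epididymis score gave 0.17 ± 0.13.

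Anxa3, known from neutrophil granules and endothelium, had log2 values of 10.35, 9.73, 10.30 and 10.45 in prednisolone mice 1 to 4, against 10.21, 10.12, 10.19 and 9.98 in vehicle mice 1 to 4. Here 3 prednisolone mice lay above all vehicle mice and prednisolone mouse 2, of high epididymis score, below all of them. The difference was 0.08 ± 0.16 over all mice (limma adjusted p = 0.903) and 0.24 ± 0.09 without prednisolone mouse 2 (adjusted p = 0.629). Without the 3 mice of high score it was 0.21 ± 0.10 (adjusted p = 0.957), without prednisolone mouse 4 it was 0.0023 and with array weights it was 0.19.

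Anxa8, an annexin of epithelia, had the widest spread of the family. Its log2 values were 7.46, 7.0, 7.27 and 7.65 in prednisolone mice 1 to 4, against 6.71, 7.06, 8.30 and 6.77 in vehicle mice 1 to 4. Vehicle mouse 3 was highest of all, and vehicle mice 1 and 4 lay below every prednisolone mouse. Vehicle mice 1 and 4 and prednisolone mouse 2, the 3 mice of high epididymis score, had the lowest Anxa8 values. The difference was 0.14 ± 0.34, with a 95% interval of -0.65 to 0.92 (limma adjusted p = 0.927). Leaving out vehicle mouse 3 gave 0.50 ± 0.17 (adjusted p = 0.579). The value was -0.03 when vehicle mouse 1 was left out, -0.0081 when vehicle mouse 4 was, and -0.22 ± 0.35 without the 3 mice of high epididymis score, so its direction is not settled. Array weights gave 0.36. Markers of mesothelium, the cell layer that covers the fat pad, were highest in the same mouse. Their list score, over 14 tested members, was 0.76 in vehicle mouse 3, against -0.23 to 0.24 in prednisolone mice and -0.71 to 0.09 in the other vehicle mice. The 0.09 belonged to vehicle mouse 1, which had the lowest Anxa8. Vehicle mouse 3 also had the highest macrophage, adipose progenitor and neutrophil scores, at 0.48, 0.48 and 0.21. Upk3b, a mesothelial uroplakin, read 9.78, 8.76, 10.25 and 10.22 in prednisolone mice 1 to 4, against 9.71, 9.92, 11.04 and 7.82 in vehicle mice 1 to 4. Upk1b of the same list was also highest in vehicle mouse 3, at 10.32. Efemp1, the brightest marker of the list, was instead highest in prednisolone mouse 3. It read 11.77, 11.31, 11.94 and 11.91 in prednisolone mice 1 to 4, against 10.82, 11.68, 11.68 and 11.18 in vehicle mice 1 to 4. The part of mesothelium in the Anxa8 values was not tested.

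Anxa9, an annexin whose core has lost its calcium-binding sites, differed least. Its log2 values were 7.27, 7.81, 7.41 and 7.55 in prednisolone mice 1 to 4, against 7.45, 7.48, 7.35 and 7.48 in vehicle mice 1 to 4. The vehicle mice lay close together, and the prednisolone mice lay on both sides of them, with mouse 2 of high epididymis score at the top. The difference was 0.07 ± 0.12, with a 95% interval of -0.20 to 0.33 (limma adjusted p = 0.892), its sign turned to -0.03 without prednisolone mouse 2 and it was 0.0034 with array weights.

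**Figure D3:**
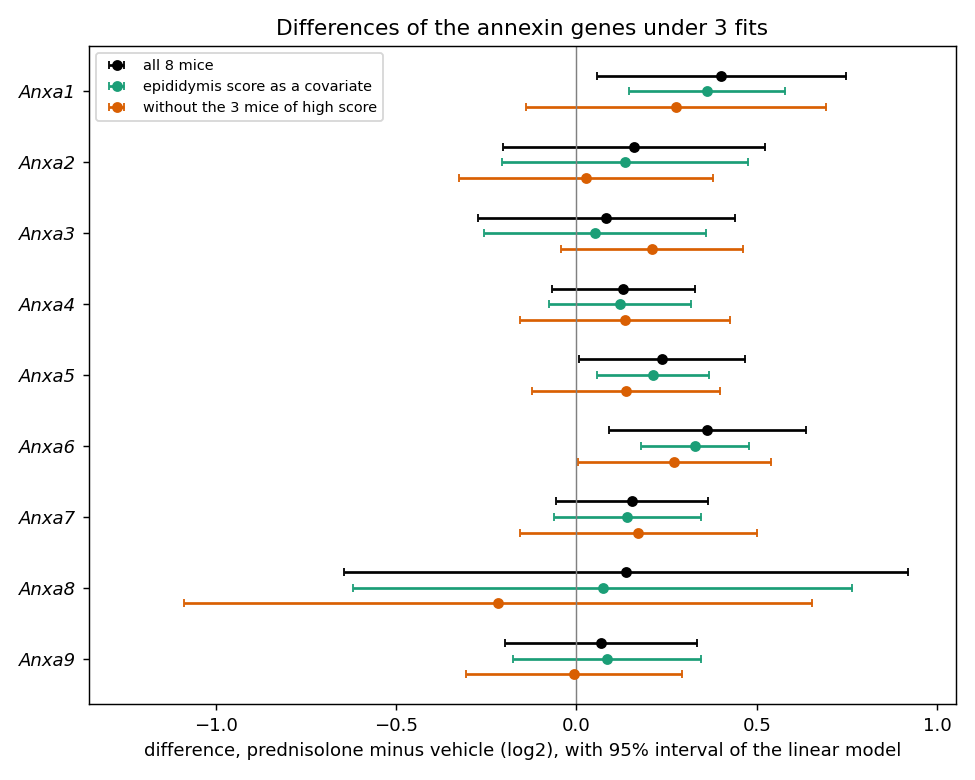
Difference between prednisolone and vehicle means (log2, horizontal axis) of each measured annexin with the 95% interval of the linear model, over all 8 mice (black), with the epididymis score as a covariate (green) and without the 3 mice of high score (orange). The Anxa6 interval lies above 0 in all 3 fits, Anxa1 moves between 0.28 and 0.40, and Anxa8 turns to -0.22 without the 3 mice.

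The same mice were high or low for several annexins. Prednisolone mouse 3 was the highest mouse for 5 of the 9 annexins, Anxa1, Anxa2, Anxa4, Anxa5 and Anxa7, and prednisolone mouse 4 for Anxa3 and Anxa6. Vehicle mouse 1 was lowest for Anxa1, Anxa5, Anxa6 and Anxa8, and vehicle mouse 4 for Anxa2 and Anxa4. Vehicle mouse 4 was among the lowest pair of mice for 7 of the 9 annexins. The 9 annexins were read on the same 8 arrays and are not independent observations.

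Macrophage markers moved partly with this order. Of 15 tested members 13 were higher and 2 lower with prednisolone, with a median difference of 0.27. Over all tested genes 54.6% were higher, the share beside which the count of each marker list here is to be read. At an unadjusted p under 0.05 stood 4 of the 15, against 5.69% of all tested genes, with a lowest p of 0.00117 in limma. Past an adjusted p of 0.05 there were 0. The macrophage score was 0.36, 0.00, 0.34 and -0.02 in prednisolone mice 1 to 4, against -0.52, -0.17, 0.48 and -0.46 in vehicle mice 1 to 4. Vehicle mice 1 and 4 had the lowest score, as they had the lowest Anxa1, Anxa5 and Anxa6. Vehicle mouse 3 had the highest macrophage score, and its Anxa1, Anxa5 and Anxa6 values lay below those of every prednisolone mouse. The mean log2 level over the list ran from 9.09 to 9.46 in prednisolone mice and from 8.59 to 9.59 in vehicle mice. Of 11 tested adipocyte markers 9 were higher and 2 lower with prednisolone (median difference 0.08), 1 had an unadjusted p under 0.05 and 0 passed. The adipocyte score was 0.07, -0.07, 0.12 and 0.11 in prednisolone mice 1 to 4, against -0.25, 0.13, -0.06 and -0.06 in vehicle mice 1 to 4. Vehicle mouse 2, the highest vehicle mouse for Anxa1, Anxa5 and Anxa6, had the highest adipocyte score, and vehicle mouse 1 had the lowest. Of 11 neutrophil markers only 4 were above the dim limit, and Ly6g, S100a9 and Retnlg were not among them. Endothelial markers were lower with prednisolone in 9 of 11 tested members (median difference -0.18), progenitor markers in 5 of 11, T and NK cell markers in 5 of 5 and epithelial markers in 7 of 8, with 0 passing in each list. The epithelial score was highest in the mice of high epididymis score. It read 1.80 for vehicle mouse 1, 1.25 for vehicle mouse 4 and 1.07 for prednisolone mouse 2. Each other mouse lay between -0.98 and -0.72. Whether epididymis tissue set the epithelial count was not tested. The part of the cells of these lists in the annexin values was not tested either.

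**Figure D4:**
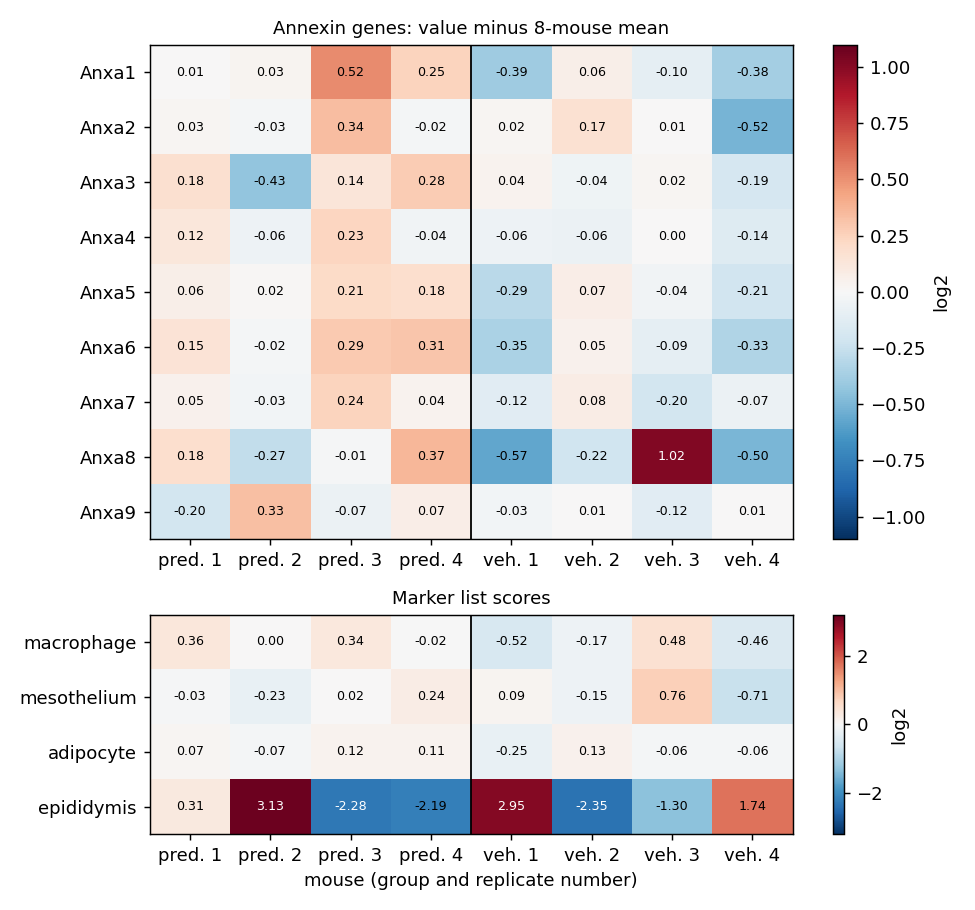
Upper panel, each measured annexin (row) in each mouse (column) as its log2 value minus its mean over the 8 mice; lower panel, the scores of 4 marker lists in the same mice, in log2 units with a wider colour scale. Prednisolone mouse 3 is red and vehicle mouse 4 blue for most annexins, and the epididymis score runs from -2.28 to 3.13 in prednisolone mice and from -2.35 to 2.95 in vehicle mice.

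The receptors through which annexin A1 acts were dim or had no value. Of 7 listed formyl peptide receptor genes 4 had a probe set of their own, and 0 of these were above the limit for dim genes. Fpr2, the receptor of annexin A1, read 3.63, 3.28, 3.45 and 2.69 in prednisolone mice 1 to 4, against 2.89, 3.87, 4.77 and 3.30 in vehicle mice 1 to 4. All of these lay under the limit of 5.82, so Fpr2 was not tested. Fpr1 had no value.

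S100 proteins, small calcium sensors that pair with annexins, had 8 tested members of 10, of which 6 were higher and 2 lower with prednisolone (median difference 0.19), and 0 passed. S100a10, the partner of annexin A2, had log2 values of 12.07, 11.64, 12.24 and 12.02 in prednisolone mice 1 to 4, against 11.50, 11.82, 12.19 and 11.65 in vehicle mice 1 to 4. The groups overlapped through vehicle mouse 3 and prednisolone mouse 2 (0.20 ± 0.18, limma adjusted p = 0.803). S100a11, the partner of annexin A1, read 12.81, 12.70, 13.01 and 12.91 in prednisolone mice 1 to 4, against 12.45, 12.97, 12.67 and 12.43 in vehicle mice 1 to 4. Prednisolone mouse 3 was highest and vehicle mice 1 and 4 were lowest, as for Anxa1 (0.23 ± 0.13, adjusted p = 0.768). S100a6, which binds several annexins, differed by 0.33 ± 0.34, and S100a1, a calcium sensor of muscle, by -0.16 ± 0.13.

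The plasmin system, which annexin A2 assembles on the cell surface, had 3 tested members higher and 3 lower (median difference 0.01), and 0 passed. Plaur, the urokinase receptor, averaged 7.55 in prednisolone mice and 7.16 in vehicle mice (0.39 ± 0.19, limma adjusted p = 0.768). Plg, plasminogen itself, averaged 5.95 in prednisolone mice and 6.57 in vehicle mice (-0.62 ± 0.36). Plat, tissue plasminogen activator, differed by 0.17 ± 0.18 and Serpinf2, the plasmin inhibitor, by -0.44 ± 0.58. Serpinf2 was highest in the mice of high epididymis score. Its values were 7.68 for vehicle mouse 1, 7.27 for vehicle mouse 4 and 7.08 for prednisolone mouse 2. Every other mouse read between 5.39 and 5.92. Plg was highest in vehicle mouse 4, at 7.64, then vehicle mouse 1, at 6.76, while prednisolone mouse 2 read 5.98. The part of epididymis tissue in these values was not tested.

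Phospholipase A2 genes, whose activity annexin A1 was first described to inhibit, were listed with the transporter Abca1, through which annexin A1 may be exported. Of 7 tested members 4 were higher and 3 lower (median difference 0.10), and 0 passed. Pla2g4a, the cytosolic enzyme that releases arachidonic acid, averaged 7.83 in prednisolone mice and 7.67 in vehicle mice (0.16 ± 0.27, limma adjusted p = 0.893). The secreted enzyme Pla2g5 differed by 0.59 ± 0.32 with 1 high value, 7.34 in prednisolone mouse 2 of high epididymis score, while vehicle mice 1 and 4, also of high score, read 5.65 and 5.63. Pla2g7, the plasma platelet-activating factor hydrolase, differed by -0.63 ± 0.49 and was highest in vehicle mice 1 and 4, of high score, at 9.99 and 9.18, while prednisolone mouse 2 read 7.79. Pla2g2e, another secreted enzyme, differed by -0.22 ± 0.30 and Abca1 by 0.12 ± 0.17.

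Genes of membrane repair, in which annexins seal wounds together with dysferlin and calpain, had 7 tested members higher and 4 lower (median difference 0.11), and 0 passed. Otof, a ferlin of inner ear hair cells, had an unadjusted p of 0.0313 in limma with a difference of -0.35 ± 0.14. It was highest in vehicle mice 1 and 4, of high epididymis score, at 6.73 and 6.81. Prednisolone mouse 2, also of high score, read lowest at 6.06. All Otof values lay near the limit for dim genes, 5.82. The Otof groups did not overlap, as in 3.2% of all tested genes in either direction. The gap was narrow, from 6.280 in the highest prednisolone mouse to 6.281 in the lowest vehicle mouse. Cavin1, a coat protein of caveolae and abundant in adipocytes, read 11.14, 10.76, 11.03 and 11.15 in prednisolone mice 1 to 4, against 10.33, 10.90, 10.99 and 10.47 in vehicle mice 1 to 4. Vehicle mice 1 and 4 were lowest for Cavin1 too (0.35 ± 0.17, adjusted p = 0.768). Capns1, the small calpain subunit, differed by 0.11 ± 0.07 and Dysf, dysferlin, by -0.37 ± 0.28.

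Calcium-binding penta-EF-hand proteins and ESCRT factors, partners of annexins A7 and A11, were listed together with Lgals3, which belongs to neither class. The list had 7 tested members higher, Lgals3 among them, and 4 lower (median difference 0.02), and 0 passed. Lgals3, a galectin recruited to damaged membranes, read 8.84, 8.81, 9.31 and 8.76 in prednisolone mice 1 to 4, against 8.33, 8.49, 8.62 and 7.74 in vehicle mice 1 to 4. The 4 prednisolone values all exceeded the 4 vehicle values, as in 1.81% of all tested genes, and the difference was 0.63 ± 0.21 (limma unadjusted p = 0.0146, adjusted p = 0.768). Lgals3 is also a macrophage gene and stood in that marker list. Sri, the sorcin bound by annexin A7, differed by 0.14 ± 0.09, Pef1 by 0.17 ± 0.12 and Pdcd6, the ALG-2 partner of annexin A11, by -0.11 ± 0.09. The remaining annexins of the array, Anxa10 and Anxa13, were under the limit for dim genes, with means of 4.49 and 5.46 in prednisolone mice and 4.34 and 5.61 in vehicle mice.

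**Figure D5:**
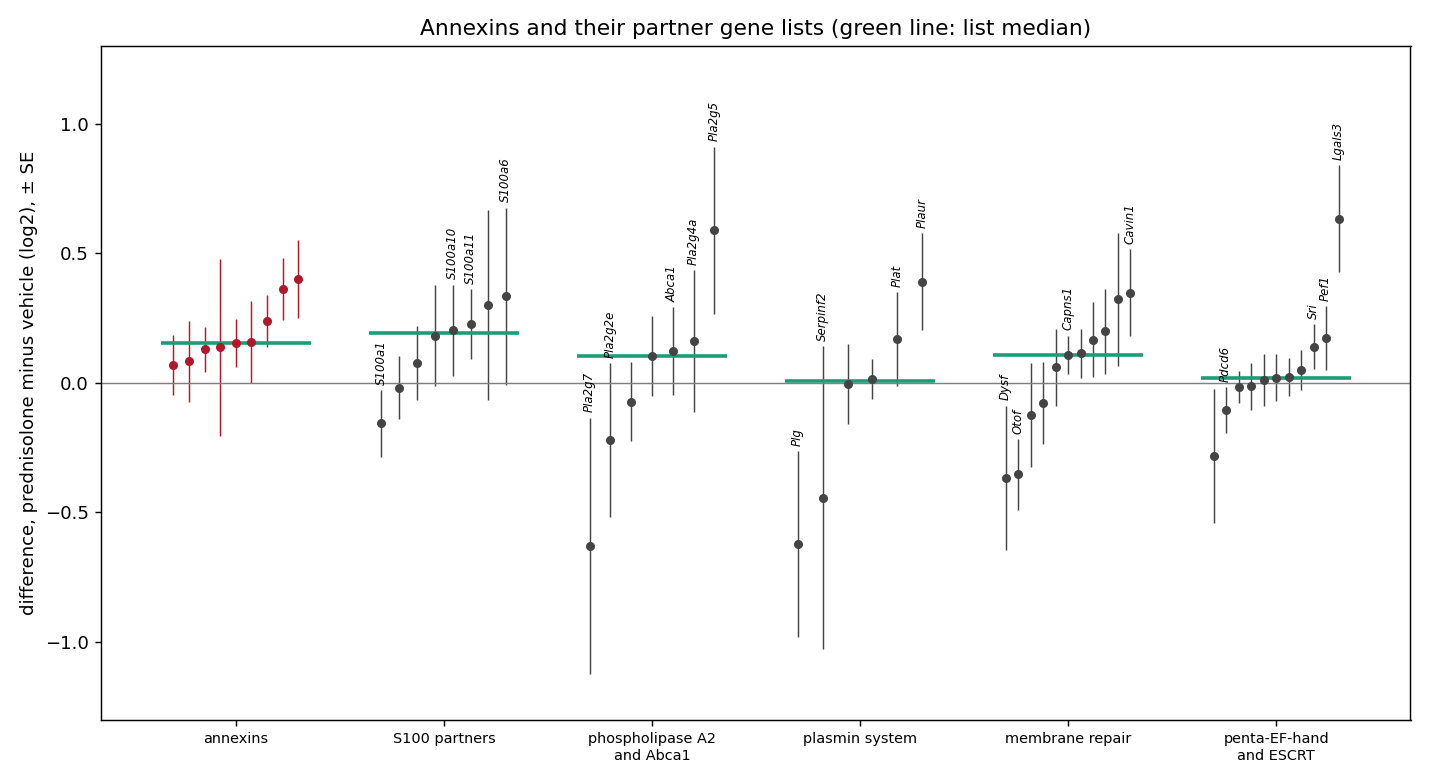
Difference between prednisolone and vehicle means (log2, vertical axis) with its standard error for the 9 measured annexins (red) and the tested genes of 5 partner lists (dark), with a green line at each list median. The annexins lie between 0.07 and 0.40, while the plasmin list spreads on both sides of 0 with a median of 0.01.

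Profiles over the 8 mice were compared by the root mean square difference between centred log2 values, as a description with no test. The tested genes most like Anxa1 were Vcl at 0.061, Tmem135 at 0.067, Syngr1 at 0.078, Cox19 at 0.080 and Wnt10b at 0.082. Vcl encodes the actin linker vinculin, Tmem135 a membrane protein of peroxisomes and mitochondria, Syngr1 a synaptic vesicle protein, Cox19 a cytochrome oxidase assembly factor and Wnt10b a Wnt ligand. Among annexins, Anxa6 at 0.104 and Anxa5 at 0.133 were nearest to Anxa1, at ranks 29 and 114 of all tested genes, and Anxa8 at 0.474 was farthest. The genes most like Anxa2 were Elovl1, a fatty acid elongase, at 0.058, Myo19, a mitochondrial myosin, at 0.063, Tpi1, triose phosphate isomerase, at 0.065, Tnni1, slow troponin I, at 0.079 and Erc1, a scaffold of vesicle docking, at 0.079. The annexin nearest to Anxa2 was Anxa4 at 0.166, at rank 630.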

How the data were processed

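The deposited values are log2 expression values, made by the authors from Mouse Gene 2.0 ST arrays by RMA, with Affymetrix Expression Console as the software per the labels. RMA equalises the distributions of the arrays, so a shift common to all genes is removed, and it compresses differences at low signal. Partek 6.6 is also named, with no role. The build used is not given in the sources used here. Of 41345 probe sets, 23521 had 1 gene symbol in the platform annotation, 1814 several and 16010 none. Matching by Entrez identifier to RefSeq for GRCm38.p6 covered 23328 and changed 0 symbols. The dimmest 33.3% of 22180 genes, up to a log2 value of 5.82, were left out. Groups came from the labels, which call the replicates biological. Array medians lay between 6.09 and 6.13, and array pairs correlated at 0.879 to 0.986. Limma 3.58.1 in R 4.3.3 compared the groups with no covariate and no block, adjusting p over 14787 genes by Benjamini-Hochberg, and was tested on simulated data. The number of arrays limits precision. Alternatives changed the filter, normalization, probe sets, variance model, array weights, replicate block, epididymis score and mice. The annexins and lists were chosen with earlier results of these data known. All 9 measured annexins were named, and of each partner list the 4 genes of lowest p plus 6 fixed ones, with the brightest markers of a list where it is described. Figures used matplotlib 3.10.9.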

Additional observations from a re-analysis of the deposited data

Results flagged for a closer look

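In groups of 4 mice, 1 mouse far from the other 3 was looked for in 33 genes and 66 groups, where chance gives about 1 in 20, and 5 were found. Anxa2 read 12.01 in prednisolone mouse 3, above the other prednisolone mice. Lgals3 read 9.31 in the same mouse, also the highest of its group. Pef1 read 8.245 in prednisolone mouse 2, the highest of its group. S100a1 read 9.70 in vehicle mouse 1, the lowest of its group, and Pla2g4a read 8.56 in vehicle mouse 3, the highest of its group.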

How the results depend on the processing

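Under 18 alternatives, 157 of 162 annexin differences kept their direction and 0 passed an adjusted p of 0.05, with a lowest adjusted p of 0.355, under array weights. The 5 that turned were Anxa8, at -0.22 without the 3 mice of high epididymis score and between -0.031 and 0.50 without 1 mouse, and Anxa9, at -0.0061 without those 3 mice and between -0.031 and 0.15 without 1 mouse. The cause was not tested. The annexin median difference, 0.15 in the chosen fit, was 0.26 with array weights and 0.10 to 0.24 without 1 mouse. The array weights were 2.01 for vehicle mouse 4, of high epididymis score, and 0.58 to 0.69 for the other vehicle mice. In prednisolone mice they ran from 0.79 to 2.06. With the replicate block the Anxa1 difference was 0.40 ± 0.14 (limma adjusted p = 0.937) and 0 genes were called. Same-numbered mice correlated at -0.19, -0.58, 0.13 and -0.28 in their deviations. Whether the number pairs mice cannot be told from these values, because mice of a number can also differ in epididymis score. That score was 3.13 in prednisolone mouse 2 and -2.35 in vehicle mouse 2. At an unadjusted p under 0.05 the count of all genes, 842 in the chosen fit, was 504 with the replicate block, 1980 with array weights, 497 without the 3 mice of high epididymis score, and 436 (without vehicle mouse 4) to 1590 (without vehicle mouse 2) without 1 mouse. Annexins at that threshold, 3 in the chosen fit, numbered 1 after a repeated quantile normalization, 2 with arrays centred on their median, 2 with the replicate block, 1 without those 3 mice and 1 to 4 without 1 mouse. Low signal limits Fpr2, Anxa10 and Anxa13.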
